A study of Mus musculus with 15 samples.

Results

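Organoids grown from fetal small intestinal epithelium were compared with adult intestinal organoids whose YAP transgene had not been induced. The comparison takes 6 of the 15 RNA-seq libraries of the series, 3 per state, and every one of the 27179 rows of the organoid count table. The rows carry no gene identifier, so they are described by their counts, level and change, and no gene, pathway or cell type marker was named. The labelled cell type, epithelial organoids, could not be checked against marker genes for the same reason.

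The fetal group was wild-type C57Bl/6J epithelium of embryonic stage E16.5 from the proximal small intestine, with 3 fetuses pooled per sample, grown in Matrigel with EGF, Noggin and R-spondin1. It is labelled as an untreated control. The adult group came from the proximal small intestine of the inducible TetON-hYAP/H2B-mCherry mouse and is labelled control, meaning no doxycycline (DOX). Its cells therefore carry a switchable, constitutively active human YAP that was not switched on. The labels used here give neither strain, age in days, culture medium nor library kit for this group, and do not say whether its 3 libraries came from separate animals. The p-values therefore speak only to how far these libraries scatter, and that scatter may be technical. Stage, genotype and whatever else changed with the group cannot be told apart. A further group of 3 libraries, adult organoids of the same labelled genotype with DOX, entered the fit to share the estimate of the spread. These libraries thereby also entered the filter on low counts and the scaling.

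Intestinal organoids are cultures of pure epithelium kept in a gel of basement membrane proteins. Fetal epithelium is known for growing as round, poorly differentiated spheroids, whereas adult crypts give budding organoids that hold stem cells, Paneth cells, enterocytes and other mature types. YAP is a transcriptional coactivator that the Hippo pathway restrains.

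Total counts were 23355962, 23955637 and 27089491 in fetal replicates 1 to 3, and 31966993, 24904044 and 12724510 in adult replicates 1 to 3. Adult replicate 3 was the shallowest library and stood apart from the other 2 adult libraries before any comparison was made. The median absolute log2 difference in CPM (a row's count relative to the TMM-scaled size of its library) was 0.0902 between adult replicates 1 and 2, and 0.0918 to 0.102 between fetal libraries. It was 0.618 and 0.637 from adult replicate 3 to the other adult libraries, larger than the 0.547 to 0.580 from adult replicates 1 and 2 to the fetal libraries. From adult replicate 3 to the fetal libraries it was 1.08 to 1.10, and to the DOX libraries 0.962 to 1.06, so this library was close to no other group. Variation between libraries of a group, as edgeR's coefficient of variation, was 5.57% over the fetal libraries. It was 35.5% over the 3 adult libraries and 4.29% over adult replicates 1 and 2. The main counts, levels and single rows are therefore given with and without that library.

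**Figure D1:**
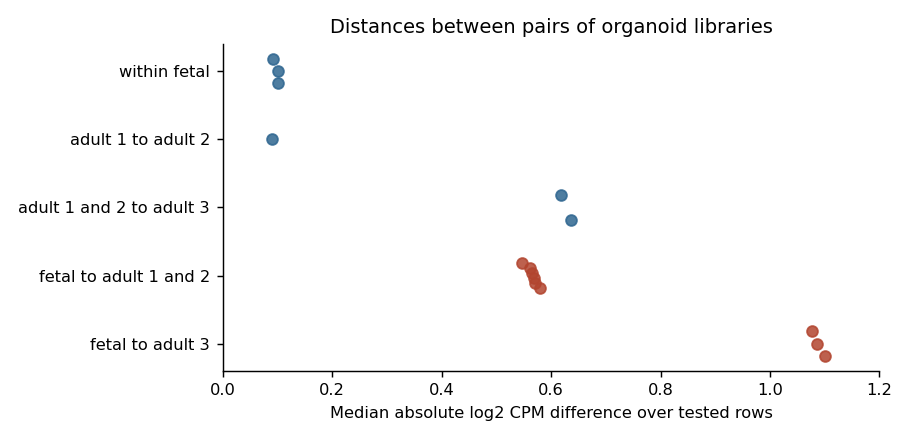
Each point is a pair of libraries, placed by the median absolute log2 CPM difference over 14877 tested rows. Blue marks pairs within a state and red marks pairs across states. The pairs of adult replicate 3 with the other adult libraries lie at 0.618 and 0.637, to the right of the fetal pairs with adult replicates 1 and 2.

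In the fit of all 9 libraries most tested rows were called, in nearly equal numbers each way. Of 14877 tested rows, 4048 were higher and 4345 lower in fetal organoids, 56.4% in all (edgeR quasi-likelihood test, Benjamini-Hochberg adjusted p under 0.05). The higher rows were 27.2% and the lower rows 29.2% of those tested. Leaving out adult replicate 3 gave 5397 higher (35.5%) and 5589 lower rows (36.8%), 72.3% of 15188 tested. Several alternative fits called most tested rows as well, such as 9132 of 14877 with DESeq2 and 8403 of 15162 without adult replicate 2. Some called only a minority. The 6 libraries compared alone gave 6945 of 14551, and the fit without fetal replicate 3 gave 7015 of 15091. Without fetal replicate 1 or 2 called rows were a minority too. With scaling by library size only, 4873 rows were higher and 3447 lower, so the share of called rows that were higher was 58.6% in place of 48.2%. That scaling moved the median log2 fold change of all tested rows to 0.18 from −0.02. The balance of directions therefore holds relative to the TMM centre of the libraries.

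Nearly all rows called with adult replicate 3 in the fit were also called without it. Both fits called 8352 rows, and all 8352 had the same sign. The fits share every library except adult replicate 3, so agreement in sign is largely built in. Only 41 rows were called with the library in the fit and not without it, against 2634 rows called only without it, of which 204 were not tested with it. Of the called rows, 98.7% (8282) had no overlap between the 3 fetal and the 3 adult libraries in CPM. Over all tested rows the groups did not overlap in 68.2%, with fetal libraries above in 34.6% and below in 33.6%.

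Adult replicate 3 could be read as a library outside the fit that left it out. Of the 10986 rows called without it, 9510 (86.6%) had adult replicate 3 on the same side of the fetal mean as the other adult libraries, and 9299 (84.6%) had it outside the range of the fetal libraries on that side. Over all 15188 tested rows, called or not, these shares were 78.6% and 75.8%, and over the 4202 rows not called 57.7% and 52.6%. The rows were chosen by their distance from the same fetal libraries, so a higher share among called rows is built into the choice and tests nothing. The 5397 rows higher in fetal organoids had a median log2 difference of 1.02 from adult replicates 1 and 2 and of 1.36 from adult replicate 3. For the 5589 lower rows these medians were −0.82 and −1.28. The same fetal libraries stand in both differences, which are a description.

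Most called changes were moderate, and a long tail was very large. The median absolute log2 fold change was 1.39 over called rows, with quartiles of 0.79 and 2.88, and 5% of called rows lay above 7.93. The median was 0.91 without adult replicate 3. Called rows over 2-fold were 2664 on the higher and 2766 on the lower side, or 2748 and 2392 without that library. When each row was tested against a 2-fold change, which asks that the change exceed 2-fold beyond its error, 1995 rows were higher (13.4%) and 1792 lower (12%), or 25.5% of those tested (edgeR glmTreat, adjusted p under 0.05). The same test without adult replicate 3 gave 2305 higher (15.2%) and 1946 lower rows (12.8%), 28% in all.

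Over 32-fold more rows were lower than higher, and over 8-fold the order of the directions depended on the fit. Over 8-fold, 971 rows were higher and 1049 lower in fetal organoids, and over 32-fold 460 and 645. With scaling by library size only these were 1047 higher and 998 lower over 8-fold, and 487 and 610 over 32-fold. A fit of 5 libraries, without the DOX group and adult replicate 3, gave 1036 and 1027 over 8-fold, and 493 and 634 over 32-fold. A row with 0 counts in a group has a fitted fold that depends on the fitting, so these rows were also placed at the lower bound that 3 counts over the group allow. The counts over 8-fold were then 969 and 1037, and over 32-fold 406 and 574. With adult replicate 3 left out, the counts over 32-fold were 500 and 662, or 398 and 568 at the bound. No test of the difference between the directions was run.

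**Figure D2:**
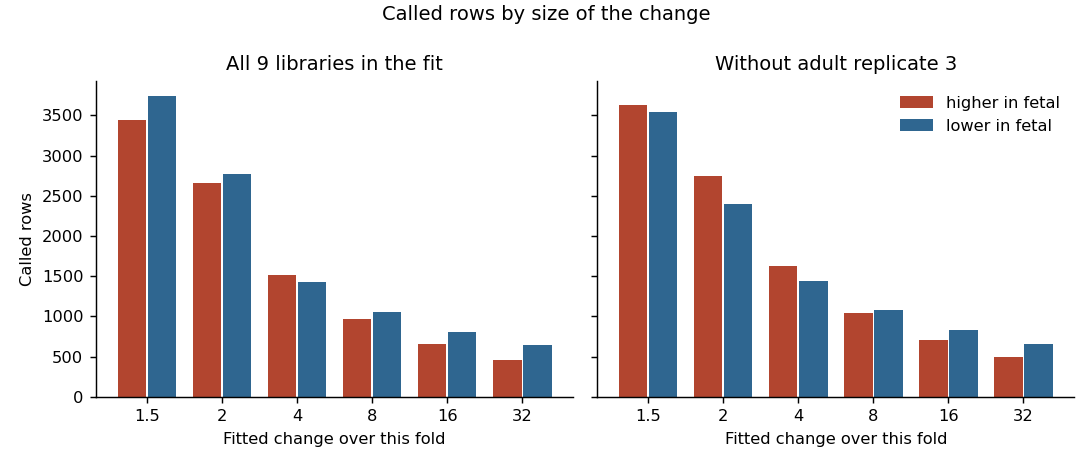
Bars count called rows whose fitted change exceeds the fold on the horizontal axis, with fetal-higher rows in red and fetal-lower rows in blue. Over 32-fold the blue bar is taller in both fits, at 645 against 460 with all 9 libraries and 662 against 500 without adult replicate 3.

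The level that such rows reached was similar at the median and not at the top. Among rows over 8-fold, the median level in the higher state was 9.19 CPM for fetal-higher rows and 8.81 CPM for fetal-lower rows. At 100 CPM or more there were 103 fetal-higher and 160 fetal-lower rows, and at 1000 CPM or more 3 and 21. In the fit without adult replicate 3, with adult levels taken from replicates 1 and 2, the medians were 6.64 and 7.17 CPM, with 100 and 158 rows at 100 CPM or more and 3 and 17 at 1000 CPM or more. The rows over 8-fold higher in fetal organoids took 5.82%, 5.71% and 6.01% of the counts of fetal replicates 1 to 3, and 0.223%, 0.247% and 0.176% in adult replicates 1 to 3. Those over 8-fold lower took 8.80%, 8.69% and 10.4% of the counts in adult replicates 1 to 3 and 0.324%, 0.304% and 0.312% in the fetal ones. These shares describe rows chosen by the change itself.

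The concentration of counts in the highest rows was also read. The 100 highest rows of each library held 16.7%, 16.7% and 16.3% of the counts in fetal replicates 1 to 3, and 21.8%, 21.0% and 26.7% in adult replicates 1 to 3. The groups did not overlap, and adult replicate 3 was the highest. The exact two-sided permutation test gave p = 0.1 (16.6% ± 0.204 against 23.2% ± 3.09, SD, n = 3), the smallest that 3 against 3 allows, and an adjusted p of 0.2 over 6 library measures. The difference of means, fetal minus adult, was −6.59 percentage points, and −4.82 without adult replicate 3. The number of rows with a count, after each library was thinned to 12724510 counts, was 16709 ± 71.4 in fetal and 16746 ± 183 in adult libraries (exact permutation p = 0.8, adjusted p = 0.9). A difference in the number of detected rows was not shown at this depth.

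The row with the highest mean level in adult organoids was also among the highest in fetal ones. It stood at 31044, 31008 and 35743 CPM in adult replicates 1 to 3, and at 7557, 8835 and 6928 CPM in fetal replicates 1 to 3. The groups were far apart, and the row was lower in fetal organoids by a log2 fold change of −2.07 ± 0.18 (SE, adjusted p = 1.09e-05, edgeR quasi-likelihood test). Without adult replicate 3 it was lower as well. In the DOX libraries it stood at 31057, 29552 and 34717 CPM. The row with the highest mean level in fetal organoids stood at 9786, 9541 and 8830.3 CPM there and at 17190, 13459 and 14839 CPM in adult replicates 1 to 3. It too was lower in fetal organoids (−0.69 ± 0.18, edgeR adjusted p = 0.0101), at −0.71 ± 0.14 without adult replicate 3.

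The lists of highest rows were shared only in part. Of the 20 highest rows of each state 11 were shared (55% of each list), of the 100 highest 49 (49%), and of the 1000 highest 633 (63.3%). These numbers were 12, 54 and 679 without adult replicate 3. Among the 20 highest fetal rows, 6 were called higher and 7 lower in fetal organoids, and among the 20 highest adult rows 0 were called higher and 16 lower. Over all tested rows 27.2% were called higher and 29.2% lower. Both lists held rows from a short stretch of the table, 25616 to 25629, which were counted singly. All of these had a fitted change below 0, and all but row 25627 were called lower. The fetal list gave 10 higher and 9 lower, and the adult list 1 higher and 18 lower, in the fit without adult replicate 3. That fit called 35.5% of all tested rows higher and 36.8% lower. Choosing rows for their level in a state favours rows that are higher in that state, so these counts are a description.

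The largest changes set high levels in a state against a handful of counts in the other. The row with the largest rise among rows with a mean of at least 3 on the log2 CPM scale, row 398 of the table, was measured at 1405, 1336 and 1659 CPM in the 3 fetal libraries. In adult replicates 1 to 3 it had 10, 4 and 0 counts, and in the DOX libraries 6, 8 and 11 counts. The fitted log2 fold change was 12.93 ± 0.40 (SE, adjusted p = 3.27e-08, edgeR quasi-likelihood test), and 12.64 ± 0.19 without adult replicate 3. It was thus near the detection limit in every adult library, with or without DOX. Next came row 15138, which reached 449, 349.7 and 376 CPM in the fetal libraries against 6, 3 and 5 counts in the adult ones. Its log2 fold change was 10.95 ± 0.43 (edgeR adjusted p = 1.03e-07), and 11.35 ± 0.23 without adult replicate 3. It had 0, 0 and 3 counts in the DOX libraries.

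On the lower side, the largest fitted change with all 9 libraries was that of row 23072, with 1, 4 and 0 counts in fetal replicates 1 to 3. It stood at 582, 519 and 2102 CPM in adult replicates 1 to 3, so adult replicate 3 was far above the other adult libraries. Its log2 fold change was −14.10 ± 0.97 (adjusted p = 2.87e-06, edgeR quasi-likelihood test) and −13.15 ± 0.20 without that library, where it ranked 3 among the eligible rows and row 15748 ranked 1. In the DOX libraries it stood at 17.3, 14.1 and 14.8 CPM, far below every adult library without DOX. Row 15748 had 0, 6 and 5 counts in fetal replicates 1 to 3 and stood at 1543, 1524 and 2284 CPM in adult replicates 1 to 3, so that its log2 fold change was −13.77 ± 0.52 (adjusted p of 8.08e-08 by edgeR), and −13.55 ± 0.19 without adult replicate 3. In the DOX libraries it stood at 1839, 1839 and 1886 CPM, between the lowest and the highest adult library.

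The 20 largest changes in each direction, under the same level and overlap rule, were taken from 2273 eligible fetal-higher and 2630 eligible fetal-lower rows. Those higher in fetal organoids had log2 fold changes of 6.26 to 12.93, and mean levels of 74.5 to 1466 CPM in fetal against 0.145 to 2.97 CPM in adult libraries. Those lower had −8.29 to −14.10, with 210 to 1996 CPM in adult and 0.0584 to 6.21 CPM in fetal libraries. All 20 in each direction were also called without adult replicate 3, with log2 fold changes of 6.26 to 12.64 and of −8.07 to −13.55. In the DOX libraries the median level of the 20 fetal-higher rows was 4.32 CPM and that of the 20 fetal-lower rows 603 CPM. The uninduced adult libraries are the reference of both sets of values. No row of these lists had 3 counts or fewer over its lower group.

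**Figure D3:**
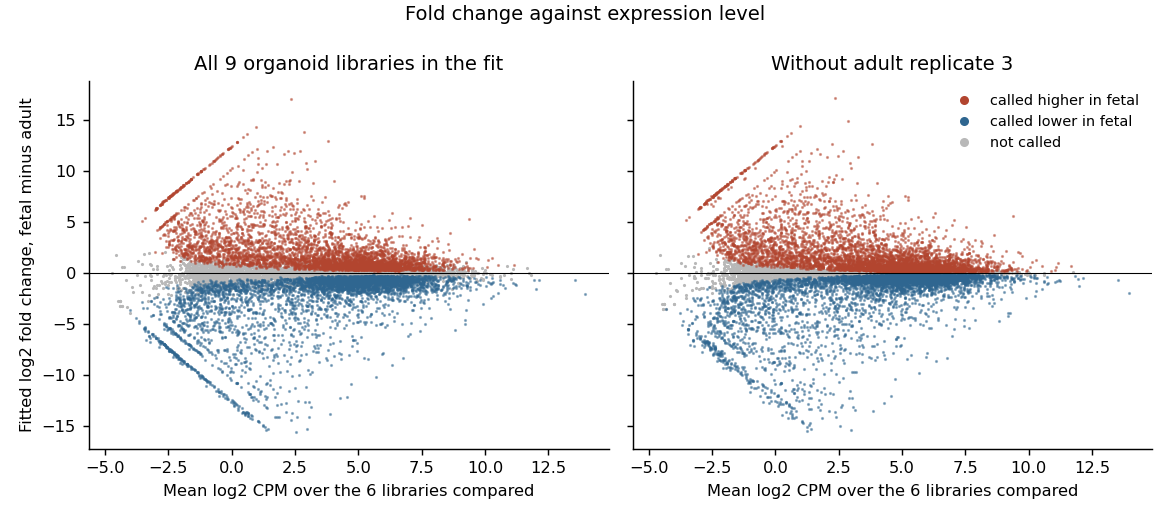
Each point is a row, placed by its mean log2 CPM over the 6 libraries and its fitted log2 fold change, with called rows in red (higher in fetal) and blue (lower). The right panel shows the rows of the left panel under the fit without adult replicate 3, and the diagonal streaks at low levels are rows with 0 or few counts in a state.

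The size of the change fell from low to moderate mean expression and was level above that. Rows were binned by their mean log2 CPM over the 6 libraries. The median absolute log2 fold change was 2.31 in the 2326 rows under 0, 1.39 from 0 to 2, 0.78 from 2 to 4, 0.49 from 4 to 6, 0.43 from 6 to 8 and 0.50 in the 436 rows at 8 and over. Leaving out adult replicate 3, these medians were 2.24, 1.29, 0.62, 0.38, 0.35 and 0.36. The lowest bin held 307 rows with 0 counts in a group, and with these at their lower bound its median was 2.26. Without a filter on low counts this bin held 8567 rows, with a median of 1.75. A row that is nearly off in a state has a low mean by that fact, so the bins are not independent of the change. When rows were binned by the level of the higher group instead, the medians ran 1.30, 1.42, 0.78, 0.54, 0.54 and 0.87. By that measure the change was largest in the bins under 2 and rose again in the highest bin. The corresponding medians without adult replicate 3 were 1.40, 1.32, 0.65, 0.42, 0.43 and 0.64.

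Differences between replicates fell with level in the same manner. The median absolute log2 CPM difference of 2 fetal libraries was 0.353 in the lowest bin and 0.0602 in the highest, and that of adult replicates 1 and 2 was 0.354 and 0.0526. From fetal libraries to adult replicates 1 and 2 it was 2.04 and 0.371. The ratio of the difference between states to the difference between fetal libraries was 5.76, 6.13, 5.19, 5.08, 6.06 and 6.17 from the lowest bin to the highest. Measured against replicate spread, the ratio thus stayed between 5.08 and 6.17 in these bins. The distance of adult replicate 3 to the other adult libraries changed little with level, from 0.817 in the lowest bin to 0.575 from 4 to 6 and 0.615 at 8 and over. Relative to the distance of adult replicates 1 and 2 it was 2.31 times as large in the lowest bin and 11.7 times as large in the highest. In absolute terms the median row of adult replicate 3 had 6 counts in the lowest bin and 5195 in the highest.

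Among rows that passed the filter on low counts, the share called fell with mean level when adult replicate 3 was in the edgeR fit at full weight. It was 68.0%, 67.1%, 58.9%, 49.8%, 49.6% and 52.5% from the lowest bin to the highest. In the fit without that library it was 70.2%, 73.0%, 72.9%, 72.8%, 72.5% and 72.9%, so no fall with level was present there. Binned by the higher group, the shares were 49.9%, 65.6%, 58.1%, 53.1%, 55.7% and 66.8%, and 56.3%, 71.1%, 71.6%, 74.5%, 76.0% and 80.9% without adult replicate 3. The filter keeps low rows that are high in a single group, which favours rows that differ. With no filter and all 9 libraries, 27.6% of the 8567 rows with a mean under 0 were called, and 66.2% from 0 to 2. The fall at the low end therefore holds for filtered rows only. The smallest change that was called was 0.62 on the log2 scale in the lowest bin and 0.23 from 6 to 8. These limits were 0.55 and 0.13 without adult replicate 3. The share that passed the test against 2-fold was lower in the highest bin in both fits, from 53.4% in the lowest bin to 12.2% in the highest, and from 54.6% to 14.2% without adult replicate 3. Binned by the higher group it was 32.5%, 44.3%, 30.4%, 19.0%, 17.9% and 31.3%, with no such fall from the lowest bin to the highest. The lowest and the highest bin of that kind gave 37.5% and 34.2% without adult replicate 3.

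The balance of directions by level was read next. Of the called rows, 48.1%, 54.2%, 51.5%, 45.4%, 46.1% and 38.0% were higher in fetal organoids from the lowest bin to the highest. At 8 and over, 87 rows were higher and 142 lower, and without adult replicate 3 they were 139 and 179 (43.7% higher). Over 8-fold, that bin held 4 higher and 6 lower rows. Binned by the level of the higher group, the highest bin held 188 higher and 301 lower rows (38.4% higher), or 247 and 345 without adult replicate 3. The difference in direction between bins was not tested.

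**Figure D4:**
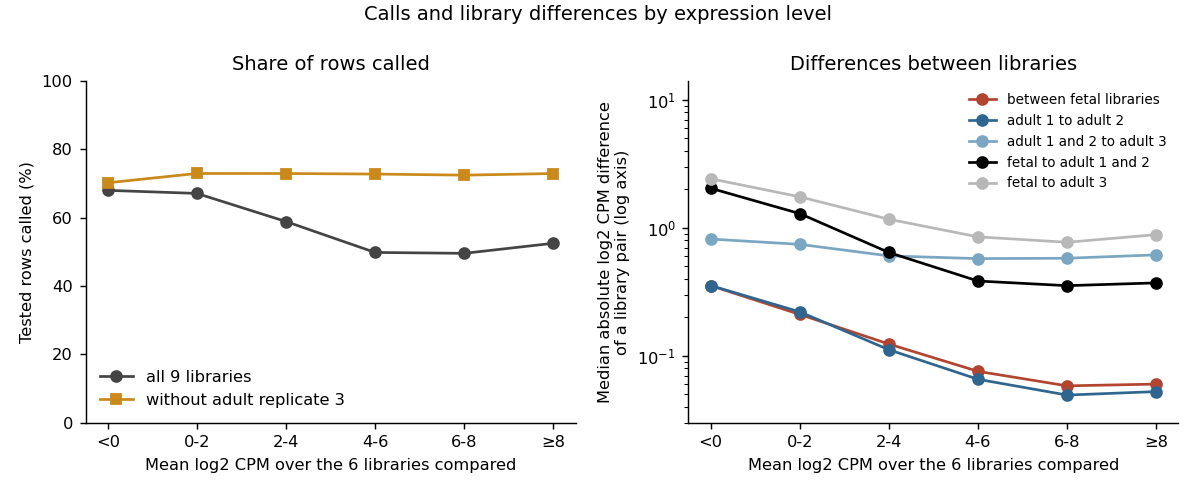
The left panel gives the percent of tested rows called in each bin of mean log2 CPM, and the right panel the median absolute log2 CPM difference of pairs of libraries on a log axis. Among rows that passed the filter on low counts, the share called falls from 68.0% to 49.6% and 52.5% in the edgeR fit of all 9 libraries. Without adult replicate 3 it stays between 70.2% and 73.0%.

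Most of the table's rows were either expressed in both states or in neither. Of the 27179 rows, 17568 had counts in both groups, 6694 had 0 counts in all 6 libraries, 1454 had counts only in fetal and 1463 only in adult libraries. The test took 14877 rows, and 5609 of the rows it left out had a count in at least 1 of the 6 libraries. Rows seen in a single state were mainly rows with few counts. Of those at 0 in adult libraries, 913 had 1 to 3 counts in all and 260 had 4 to 10, while 59 had 101 to 1000 and 23 more than that. Of those at 0 in fetal libraries, 822 and 296 had such low counts, 71 had 101 to 1000 and 51 more than that. A count of 0 over a group allows up to 3 counts, which is 0.0336 CPM in the fetal and 0.0405 CPM in the adult group, for counting error only.

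Rows silent in one state and clearly expressed in the other were therefore defined by 0 counts in 3 libraries and at least 1 CPM in each of the other 3. There were thus 77 rows expressed in fetal and silent in adult organoids, and 115 expressed in adult and silent in fetal organoids. Each row was counted singly, although some stood next to one another in the table and moved together. In bulk libraries such as these, fewer cells of a type and less RNA per cell cannot be told apart. All 77 and all 115 passed the test, which their definition all but ensures. The fetal-expressed rows had a median level of 4.73 CPM and the adult-expressed rows one of 10.2 CPM. At 10 CPM or more there were 26 and 59 of them, and at 100 CPM or more 1 and 8. Defined without adult replicate 3, there were 83 and 129 such rows, with medians of 4.18 and 7.07 CPM. Of these, 27 and 58 stood at 10 CPM or more and 1 and 8 at 100 CPM or more. Leaving a library out of the definition can only add rows. Against the floor of 3 counts over the silent group, the fetal-expressed rows were at least 28.7-fold to at least 16554-fold higher in fetal organoids (median 117). The adult-expressed rows were at least 32.2-fold to at least 5597-fold lower there (median 302).

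The highest fetal-expressed row reached 672, 629 and 705 CPM in the fetal libraries and had 0 counts in each adult library, at least 16554-fold higher. It had 0, 1 and 1 counts in the DOX libraries. The next stood at 91.5, 94.5 and 111 CPM in fetal libraries, at least 2456-fold higher, and also had 0, 1 and 1 counts with DOX. Among adult-expressed rows, the one with the highest mean over the 3 adult libraries stood at 128, 105 and 397 CPM in adult replicates 1 to 3, with adult replicate 3 far above the others, a level at least 4869-fold above that of the fetal group. It had 11, 10 and 12 counts in the DOX libraries. By the mean of adult replicates 1 and 2 alone, 117 CPM, it ranked 6, and the first was a row at 180.0, 219 and 78.9 CPM in adult replicates 1 to 3, which was singled out after its values were seen. The row that ranked 2 by either mean stood at 203, 162 and 203 CPM in adult libraries, at least 5597-fold lower in fetal ones, and at 780, 958 and 895 CPM with DOX.

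Adult replicate 3 was also read on rows that the other libraries set apart. Of 83 rows at 0 in adult replicates 1 and 2 and at 1 CPM or more in each fetal library, 6 had a count in adult replicate 3, with at most 2 counts. Of 129 rows at 0 in fetal libraries and at 1 CPM or more in adult replicates 1 and 2, 115 also reached 1 CPM in adult replicate 3, and 0 had no count there. The level of these rows was less even. Among the 115 adult-expressed rows, the highest and lowest adult library differed by more than 2-fold in 50 rows, whereas adult replicates 1 and 2 differed by that much in 0. Of the 77 fetal-expressed rows 1 differed by more than 2-fold between fetal libraries. The adult-expressed rows from 23044 to 23071 of the table stood close together. In each of them adult replicate 3 was more than 2-fold above the lowest adult library, and each DOX library was under 1 CPM. The highest adult-expressed row, 23064, is among them, and row 23072 lies next to them. Fetal-expressed rows 26874, 26875, 26877 and 26878 also stood together. Such rows may not vary independently, which was not tested.

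Apart from the shared scaling, the adult organoids with DOX were used in neither definition. Of the 77 fetal-expressed rows, 31, 30 and 45 had a count in DOX replicates 1 to 3, 23 had 0 counts in all of them, and 3 reached 1 CPM in each. Of the 115 adult-expressed rows, 100, 101 and 105 had a count, 8 had none, and 62 reached 1 CPM in each. The adult groups with and without DOX share their labelled genotype, and the difference between the sets was not tested.

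**Figure D5:**
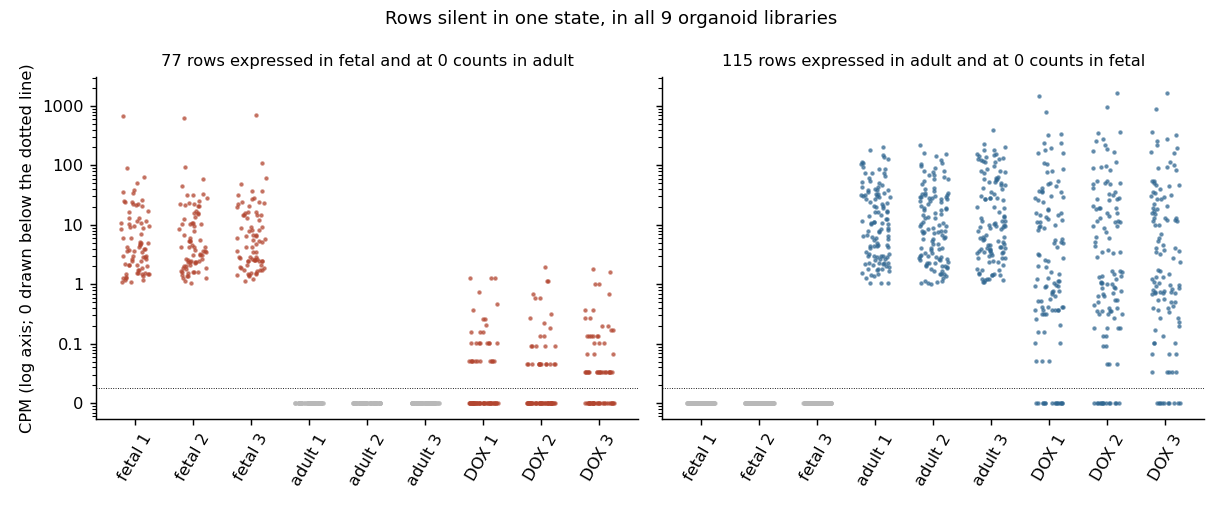
Each point is a row's CPM in a library, on a log axis with 0 drawn below the dotted line and libraries at 0 in every row in grey, for the 77 fetal-expressed rows (left) and the 115 adult-expressed rows (right). In the DOX libraries most of the fetal-expressed rows lie at or near 0, and 62 of the adult-expressed rows reach 1 CPM in all 3.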

How the data were processed

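The deposited organoid table holds raw counts per row, since its values are whole and its column sums differ. The submitters' processing notes name mm10, featureCounts and edgeR. No aligner, annotation, strand setting or filter was given in these sources. A TruSeq kit is named for the fetal libraries only, per the labels' protocols. The table of sorted cells was not used here.

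All 9 organoid libraries were fitted together with edgeR 4.0.16 in R 4.3.3 (TMM, filterByExpr by group, quasi-likelihood test, Benjamini-Hochberg adjusted p under 0.05). glmTreat tested against a 2-fold change. The standard error is the size of the log2 fold change divided by the square root of F. Levels are log2 CPM with a prior count of 1. The procedure was tested on simulated counts with 200 changed rows and the same spread in all libraries. That setting holds no outlying library such as adult replicate 3, so it does not cover that condition. With only 200 changed rows, of moderate size, it also does not cover data in which most rows were called or very large changes. Counting limits take 3 counts as the floor.

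Rows singled out are the 2 largest called changes per direction (mean log2 CPM of at least 3, no overlap), the 2 highest silent rows per state and the highest row per state. The comparison, bins and rules were chosen with earlier results of these data known. Alternatives were other scalings, filters, depths and fits, DESeq2 1.42.0, limma 3.58.1 voom with quality weights, a replicate block and leaving out each library. A fit of 5 libraries and bins by the higher group were added after seeing the data.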

Additional observations from a re-analysis of the deposited data

How the results depend on the processing

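The count of called rows, 8393, ran from 7015 (without fetal replicate 3) to 10986 (without adult replicate 3) when a library was left out, and the count beyond 2-fold, 3787, from 3542 to 4251. It was 9132 with DESeq2 (1 row had no adjusted p), 11388 with voom and quality weights, where adult replicate 3 had a weight of 0.0349 against 0.529 to 2.19 in the others, 6945 with the 6 libraries only and 11378 with 5 libraries. A filter of at least 10 counts in each of the 6 libraries left 1829 rows beyond 2-fold, 1009 higher and 820 lower, since it removes rows near 0 in a state. Without a filter, 27.6% of rows under a log2 CPM of 0 were called and their median absolute log2 fold change was 1.75. Voom called 75.8% of rows under 0, 76.8% from 4 to 6 and 75.9% from 6 to 8. No fall over these bins was present there, with adult replicate 3 in the fit at its low weight. By the level of the higher group, the lowest bin had a median of 1.30 and the highest of 0.87. Allowing up to 3 counts in the silent group gave 150 fetal-expressed and 237 adult-expressed rows, and asking for 5 CPM in each library 32 and 61. Leaving out a library gave 79 to 98 and 117 to 147. That step only loosens the definition, so these counts could not fall and do not measure stability. In rows with a mean log2 CPM of 4 or more, the mean distances were 0.0683 within fetal, 0.0585 between adult replicates 1 and 2, 0.578 from these to adult replicate 3, 0.373 from fetal to adult replicates 1 and 2 and 0.823 from fetal to adult replicate 3. No pairing by replicate number was seen: deviations of same-numbered libraries correlated at −0.0587 to 0.00315, and no library correlated best with its own number. The coefficient of variation was 35.5% over the 3 adult libraries and 4.29% over adult replicates 1 and 2. With adult replicate 3 so far apart, these correlations could not settle whether a pairing exists. With the replicate block 7529 rows were called, 3763 higher and 3766 lower. Of the 8393 called rows, 0 had a fitted change of the other sign in any alternative fit that tested them. These fits reuse the same libraries, so such agreement is largely built in. Over 8-fold, the direction with more rows turned with scaling by library size only (1047 higher, 998 lower) and in the 5-library fit (1036 and 1027). The differences in total count and in detected rows took either sign when an adult library was left out (−3635160 to 5986090 counts and −115 to 63.5 rows, fetal minus adult). They were not tested again there. The permutation test of 3 against 3 libraries could not give a p under 0.1. Depth limits rows under a log2 CPM of 0, where the median row had 6 counts in adult replicate 3.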
